A study of Mus musculus with 6 samples.

Results

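Aminoacyl-tRNA synthetases are the enzymes that join each amino acid to its tRNA. Measured here were the genes of the cytosolic synthetases, of 2 scaffold proteins that hold part of them in a complex, and of the mitochondrial synthetases. The cells, from ILC2 lines, carried a Myc guide or a control guide. The genes were taken by name from a list of 38, of which 37 were found among the 23185 named genes of the arrays (21 cytosolic, scaffolds included, and 16 mitochondrial); Dars is not analysed here. An ILC2 is a group 2 innate lymphoid cell, a lymphocyte without rearranged antigen receptors that secretes type 2 cytokines. All cells came from ILC2 lines of C57BL/6J mice, grown with 10 ng/ml each of IL-2 and IL-33. They were transduced with LentiV2CRISPRGFP lentivirus, and GFP-positive cells were sorted 6 days later. The control group (genotype label Non-target Control) carried a non-target guide RNA and the other group (genotype label Myc knock out) a guide RNA against Myc, with 3 arrays in each; arrays of the second group are called knockout-labelled below. Whether the 3 arrays of a group stand for separate cultures, transductions or lines is not in the labels, nor are the number of guides and the share of edited cells; the p-values therefore cover the spread among these arrays alone, which could be technical.

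Mammalian cells charge tRNA in the cytosol and, separately, in mitochondria. Nearly every cytosolic enzyme has a mitochondrial counterpart encoded by another nuclear gene, while Gars and Kars each supply both compartments. Several cytosolic enzymes are bound in the multisynthetase complex on the scaffolds encoded by Aimp1, Aimp2 and Eef1e1. Uncharged tRNA activates the kinase GCN2, which raises translation of the transcription factor ATF4, and many cytosolic synthetase genes are known ATF4 targets. MYC, with its partner MAX, binds E-box DNA and is known for raising genes of protein synthesis in dividing cells.

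Promoter sequences are given first to show which members hold an ATF4 element or an E-box near their start. RefSeq promoter windows of GRCm38.p6, from 250 bases before to 50 bases after the annotated start, matched 14 of the 21 cytosolic and 14 of the 16 mitochondrial genes, in 15 windows each. The ATF4 and C/EBP element was searched as TGATGNAA on both strands and the E-box as CACGTG, which reads the same on both strands; these letters do not overlap each other. TGATGNAA was in 5 of 15 cytosolic windows, those of Aars, Gars, Iars, Tars and Yars, and in 0 of 15 mitochondrial windows, against 3.97% of all 32851 windows. CACGTG was in 4 of 15 cytosolic windows, those of Aars, Farsb, Iars and Tars, and in 1 of 15 mitochondrial windows, that of Ears2, against 7.15% of all windows. A match is a description of these letters and not a bound site. The stretches below are the 120 bases that end just before the annotated start of 4 cytosolic genes and, for comparison, of the mitochondrial gene Yars2, whose window held neither motif. Matches are in capitals, and none of these stretches overlaps a gene body in the RefSeq table.
Tars, minus strand, chr15:11399659-11399778, with the ATF4 element 15 bases before the start: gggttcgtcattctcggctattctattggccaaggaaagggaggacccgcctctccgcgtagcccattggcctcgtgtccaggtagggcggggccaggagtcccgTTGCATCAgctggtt
Gars, plus strand, chr6:55037881-55038000, with the ATF4 element 30 bases before the start: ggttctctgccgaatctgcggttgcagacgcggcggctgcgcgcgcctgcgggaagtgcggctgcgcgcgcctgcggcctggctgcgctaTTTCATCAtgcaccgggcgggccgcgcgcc
Farsb, minus strand, chr1:78488898-78489017, with an E-box 39 bases before the start: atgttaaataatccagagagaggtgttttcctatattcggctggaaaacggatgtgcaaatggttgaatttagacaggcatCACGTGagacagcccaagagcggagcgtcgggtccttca
Iars, plus strand, chr13:49682010-49682129, with an E-box 69 bases before the start: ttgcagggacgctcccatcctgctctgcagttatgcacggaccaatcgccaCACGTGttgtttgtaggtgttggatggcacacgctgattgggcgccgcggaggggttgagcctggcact
Yars2, plus strand, chr16:16302845-16302964, with neither: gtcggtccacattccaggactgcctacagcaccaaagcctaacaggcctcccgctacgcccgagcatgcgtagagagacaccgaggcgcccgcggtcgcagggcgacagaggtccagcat

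The arrays gave log2 RMA values with medians between 3.27 and 3.34, and their number limits the precision. Of 11 ILC2 markers, 10 lay above the median gene in mean level, with Thy1 at 3.26 the exception; 5 of the 11 were higher and 3 lower in the knockout-labelled arrays at limma's unadjusted p under 0.05, and 1, Il5, rose past the adjusted threshold. Markers of T cells (4 of 6), NK cells and ILC1 (4 of 6), ILC3 (3 of 3), B cells (2 of 3), macrophages and dendritic cells (5 of 5) and mast cells and basophils (3 of 4) mostly lay below it, but of the fibroblast and epithelium markers 1 of 4 did. By the same unadjusted p, 2 of 6 NK cell and ILC1 markers, 1 of 3 ILC3 markers (Il17a, also past the adjusted threshold) and 2 of 4 fibroblast and epithelium markers were higher in the knockout-labelled arrays, 1 of 6 T cell markers was lower, and of 4 mast cell and basophil markers 1 was higher and 1 lower. Over all genes, 6.97% were higher and 7.91% lower by that p. With a replicate block, 0 genes passed the adjusted threshold, so the calls of Il5 and Il17a were lost there. The mean level of the NK cell and ILC1 list was 3.95 to 4.09 in controls and 4.06 to 4.15 in those arrays, that of the ILC3 list 1.69 to 1.80 and 2.05 to 2.21, and that of the fibroblast and epithelium list 4.18 to 4.29 and 4.28 to 4.35; their part in the results below was not tested. Myc itself was at 9.27, 9.33 and 9.39 in controls and at 9.55, 9.79 and 9.73 in the knockout-labelled arrays. Its mRNA was thus not lower there (log2 difference 0.36 ± 0.080, limma's adjusted p = 0.127), which goes against the label, although an edit need not lower the mRNA. Groups are named by their labels, and each direction below rests on them. Values are log2 RMA values (mean ± SD, n = 3 arrays per group), and log2 differences are knockout-labelled arrays minus control ± SE.

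Most cytosolic synthetase genes had slightly higher values in the knockout-labelled arrays, led by Tars, Wars, Hars and Farsb, and no synthetase gene of either compartment passed the test over all genes. Of 21 cytosolic members, 17 had a positive difference and 4 a negative one, with a median of 0.060 and a range of −0.13 to 0.24. Of the 16 mitochondrial members, 4 had a positive difference and 12 a negative one, with a median of −0.044 and a range of −0.28 to 0.15. Over all 23185 genes, 52.2% of differences were positive and the median was 0.0077. At a Benjamini-Hochberg adjusted p under 0.05 in limma, 0 of 37 members were called, against 0.254% of all genes higher and 0.198% lower, and the smallest adjusted p among members was 0.171. At limma's unadjusted p under 0.05, 4 cytosolic members were higher and 0 lower, and 0 mitochondrial members were higher and 1 was lower, against 6.97% of all genes higher and 7.91% lower. The 3 arrays of each group did not overlap for 8 of 21 cytosolic members, all higher, and for 2 of 16 mitochondrial members, both lower, against 9.25% of all genes higher and 10.6% lower. For the mitochondrial genes these counts of 1 and 2 of 16 lie close to that background.

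**Figure D1:**
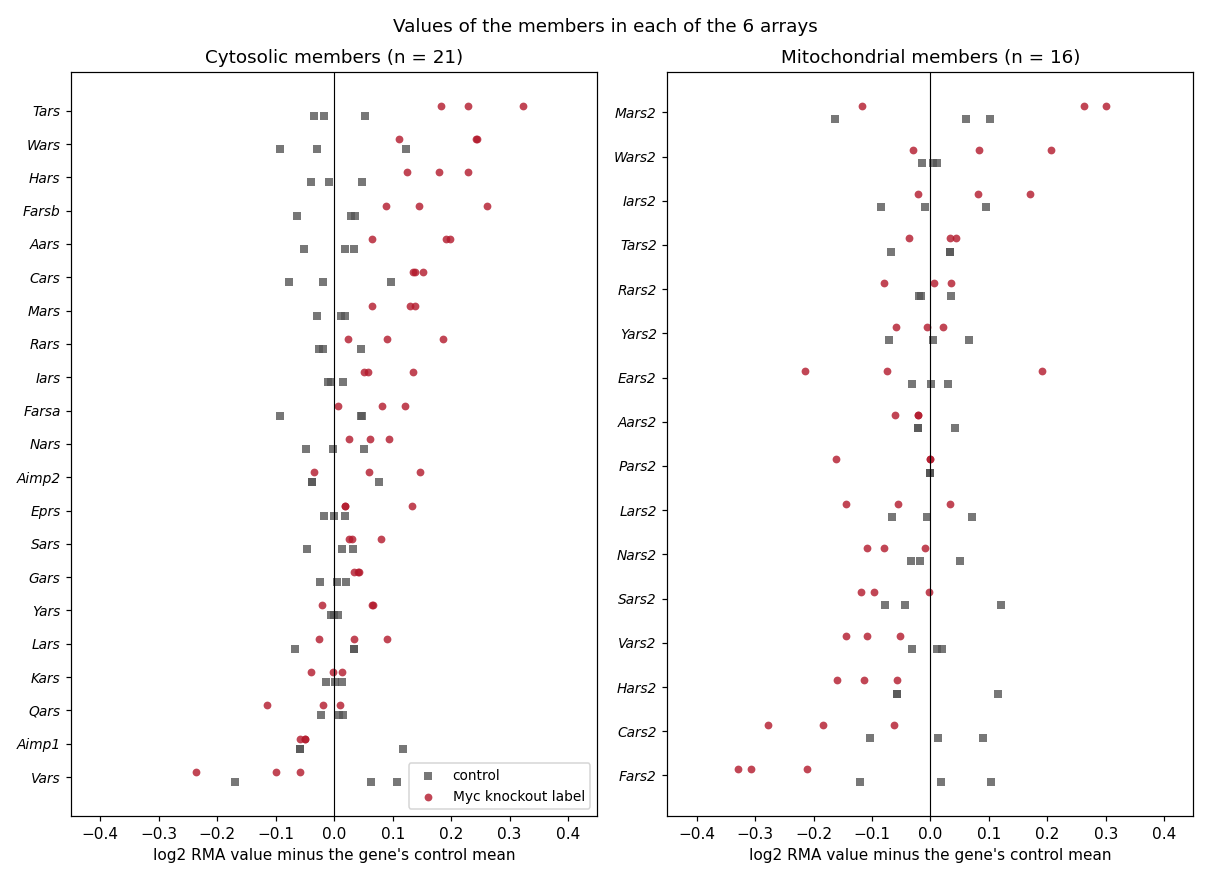
Log2 RMA value of each of the 37 measured members in each of the 6 arrays, minus that gene's control mean (x axis); grey squares are the 3 control arrays and red circles the 3 knockout-labelled arrays. Red circles lie to the right of all grey squares for 8 cytosolic members and to the left for the mitochondrial members Fars2 and Vars2.

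Tars, the threonyl-tRNA synthetase gene, had the largest positive difference of all members. It was at 8.45, 8.51 and 8.43 in the controls and at 8.64, 8.69 and 8.78 in the knockout-labelled arrays. Every array of the second group lay above every control, a 1.18-fold difference (0.24 ± 0.063, 95% confidence interval 0.094 to 0.395, limma's adjusted p = 0.171, unadjusted p = 0.00682). Hars, which charges histidine, likewise did not overlap. Its values were 8.08, 8.17 and 8.11 in controls against 8.24, 8.30 and 8.35 (0.18 ± 0.059, limma's adjusted p = 0.25). Farsb encodes the beta subunit of the cytosolic phenylalanyl-tRNA synthetase. It stood at 7.49, 7.50 and 7.40 in controls and at 7.61, 7.55 and 7.73 in the other group, again without overlap (0.17 ± 0.069, limma's adjusted p = 0.334, unadjusted p = 0.0496). Farsa, the gene of the alpha subunit of the same enzyme, differed by 0.070 ± 0.067 and its groups overlapped.

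Wars, the tryptophanyl-tRNA synthetase gene and a known interferon-induced member of the family, was at 7.82, 7.60 and 7.66 in controls and 7.94, 7.93 and 7.80 in the knockout-labelled arrays. Its groups overlapped through the first control array, and the difference was 0.20 ± 0.079 (limma's adjusted p = 0.313). Just short of an unadjusted p of 0.05 lay Aars, the alanyl-tRNA synthetase gene, at 8.02, 8.11 and 8.09 in controls and 8.27, 8.14 and 8.26 in the other group (0.15 ± 0.064, limma's unadjusted p = 0.0513). Cars, for cysteine, and Mars, for methionine (listed as Mars1), differed by 0.14 ± 0.064 and 0.11 ± 0.055, and Iars, for isoleucine, by 0.081 ± 0.055. These 4 genes, Aars, Cars, Mars and Iars, also showed no overlap between groups. Rars (arginine), Nars (asparagine), Eprs (glutamate and proline), Sars (serine), Yars (tyrosine) and Lars (leucine) differed by 0.10, 0.060, 0.057, 0.045, 0.036 and 0.032, each with overlapping groups. Negative differences were seen for 4 cytosolic members, Vars, Aimp1, Qars and Kars.

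Vars, for valine, had the lowest of these at −0.13 ± 0.094 (limma's adjusted p = 0.550). Its values scattered, at 7.60, 7.37 and 7.64 in controls and 7.48, 7.44 and 7.30 in the knockout-labelled arrays, so the groups overlapped. Qars, for glutamine, was at 8.10, 8.14 and 8.14 against 8.11, 8.01 and 8.14 (−0.042 ± 0.059). The values of Aimp1, a scaffold of the multisynthetase complex, were 7.00, 7.18 and 7.00 against 7.00, 7.01 and 7.01 (−0.053 ± 0.068), with the second control array alone standing higher. Aimp2, the other scaffold measured among the members, differed by 0.057 ± 0.071. The 2 genes that serve both compartments showed small differences. Gars, for glycine, was at 9.24, 9.20 and 9.23 in controls and 9.25, 9.26 and 9.26 in the other group (0.039 ± 0.051, 95% confidence interval −0.084 to 0.162); its groups did not overlap, but the gap was small. Kars, for lysine, was at 9.29, 9.28 and 9.26 against 9.27, 9.24 and 9.29 (−0.0091 ± 0.052, 95% confidence interval −0.134 to 0.116).

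**Figure D2:**
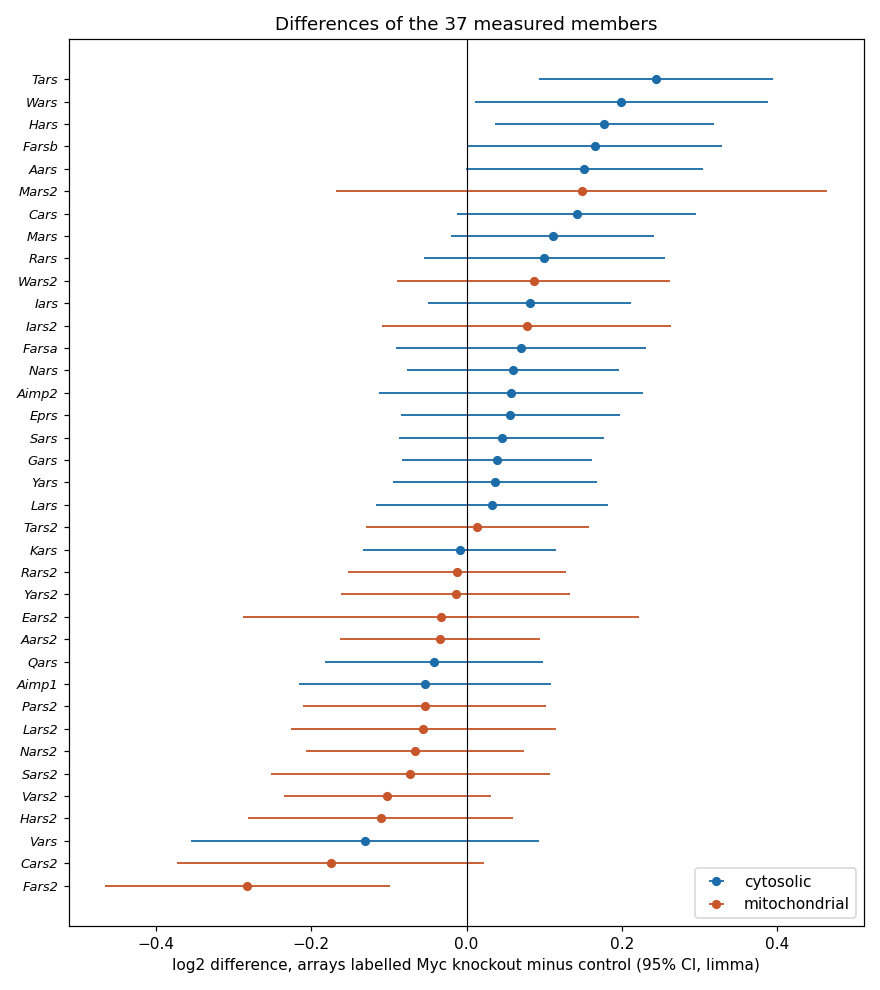
Log2 difference (x axis, knockout-labelled arrays minus control) of the 37 measured members with limma's 95% confidence interval, sorted by size; blue marks cytosolic and orange mitochondrial members. Tars is highest at 0.24 and Fars2 lowest at −0.28, and most intervals include 0.

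Within the cytosol, the enzymes outside the multisynthetase complex had the higher median. The 12 free enzymes had a median of 0.11, with 11 positive and 6 without overlap between groups. The 9 measured members of the complex had a median of 0.057, with 6 positive and 2, Iars and Mars, without overlap. Among the 9, Eprs, Kars, Lars and Aimp1 had exactly the same value in a control and a knockout-labelled array. For Eprs the groups overlapped only at that value, while those of Kars, Lars and Aimp1 also overlapped at other values. None of the 12 free enzymes had a value shared between arrays. With Eef1e1, a scaffold of the complex outside the list of members, counted in, the complex had 10 genes with a median of 0.057, of which 7 were positive, 3 did not overlap and 1, Eef1e1, was at an unadjusted p under 0.05 in limma. All 4 cytosolic members at limma's unadjusted p under 0.05 were free enzymes. Synthetases also fall into class I and class II by the fold of their catalytic domain. The 9 cytosolic class I genes had a median of 0.081 (7 positive) and the 9 class II genes a median of 0.070 (8 positive). These medians lay close together, while the means were 0.059 and 0.105. Arrays of the groups did not overlap for 3 class I and 5 class II genes. At limma's unadjusted p under 0.05 were 1 class I gene and 3 class II genes. Among mitochondrial genes, 6 of 9 in class I and 6 of 7 in class II were negative, with medians of −0.014 and −0.066. Over all genes, 9.25% were higher without overlap and 6.97% were higher at limma's unadjusted p under 0.05. The counts of 1 gene at that p, in cytosolic class I and in the complex with Eef1e1, lie near that share. No test was made between these subgroups.

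Fars2, the mitochondrial phenylalanyl-tRNA synthetase gene, had the largest negative difference of the members. It was at 8.04, 7.82 and 7.96 in the controls and at 7.63, 7.61 and 7.73 in the knockout-labelled arrays. The groups did not overlap, and the level was 1.22-fold lower (−0.28 ± 0.077, 95% confidence interval −0.466 to −0.099, limma's adjusted p = 0.183, unadjusted p = 0.00874). Vars2, for valine, also did not overlap, with 5.48, 5.47 and 5.43 in controls and 5.31, 5.41 and 5.35 in the other group (−0.10 ± 0.056, limma's adjusted p = 0.440). Cars2, for cysteine, ranged from 6.01 to 6.21 in controls and from 5.84 to 6.05 in the knockout-labelled arrays, with overlap (−0.18 ± 0.082, limma's adjusted p = 0.380). Hars2, for histidine, was at 4.95, 4.95 and 5.12 against 4.85, 4.95 and 4.89 (−0.11 ± 0.071); the second knockout-labelled array had the same value as a pair of controls.

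The mitochondrial genes with positive differences were Mars2, Wars2, Iars2 and Tars2. Mars2, for methionine, was at 4.65, 4.61 and 4.38 in controls and at 4.85, 4.81 and 4.43 in the knockout-labelled arrays (0.15 ± 0.13), so its spread within groups was as wide as its difference. For Wars2, the tryptophan enzyme gene, 5.21, 5.20 and 5.18 in controls stood against 5.41, 5.28 and 5.17 (0.087 ± 0.073). Iars2, for isoleucine, was at 7.32, 7.21 and 7.14 against 7.20, 7.30 and 7.39 (0.077 ± 0.078). Tars2, the counterpart of Tars, differed by 0.014 ± 0.060, with an interval of −0.13 to 0.16. The other mitochondrial members, Sars2, Nars2, Lars2, Pars2, Aars2, Ears2, Yars2 and Rars2, differed by −0.072 to −0.012 with overlapping groups. Of these, Ears2, for glutamate, spread most within the knockout-labelled arrays, at 3.80, 3.94 and 4.20.

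Averaged over each compartment, the arrays separated by label in opposite directions. The mean over the 21 cytosolic members, each gene set against its control mean, was 0.0026, −0.00077 and −0.0019 in the control arrays and 0.071, 0.064 and 0.084 in the knockout-labelled arrays. For the 16 mitochondrial members it was 0.013, 0.00046 and −0.013 in controls and −0.050, −0.029 and −0.049 in the other group. All genes of like level also had negative median differences, of −0.033 and −0.026 in the 2 brighter quartiles. Cytosolic minus mitochondrial, the mean was −0.0100, −0.0012 and 0.011 in controls (SD 0.011) and 0.121, 0.093 and 0.133 in the knockout-labelled arrays (SD 0.021). No p is given for these means, since the members were chosen with results of these arrays known. The third knockout-labelled array held the highest value of 10 of the 21 cytosolic genes, the first held it for 3 and the second for 4.

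**Figure D3:**
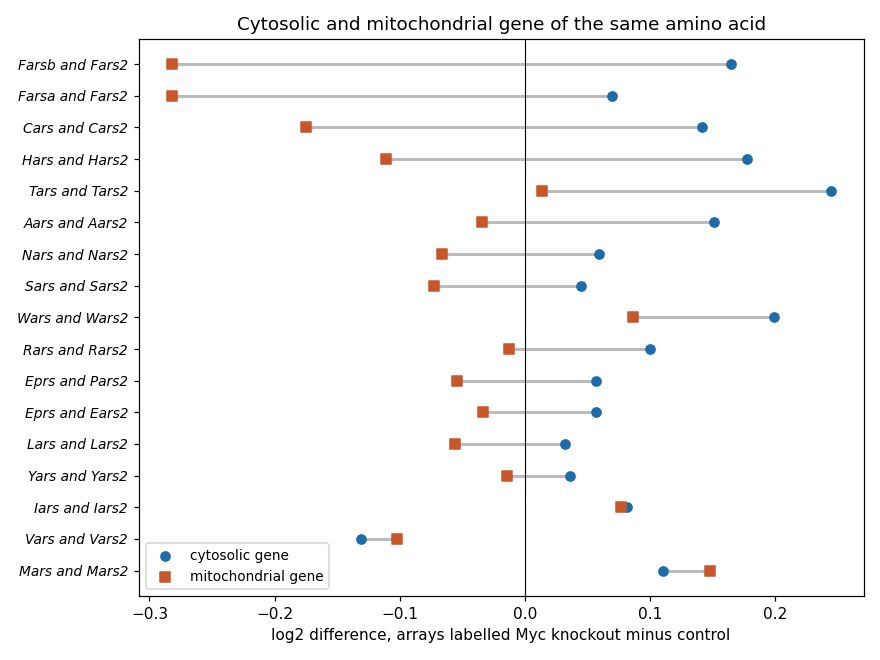
Log2 difference (x axis, knockout-labelled arrays minus control) of the cytosolic gene (blue circle) and the mitochondrial gene (orange square) of the same amino acid, joined by a grey line, for 17 pairs. The circle lies to the right of the square in 15 pairs and to the left for Vars with Vars2 and Mars with Mars2.

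Cytosolic and mitochondrial genes of the same amino acid were then set side by side in 17 pairs, in which Eprs and Fars2 each stand in 2. Only the change of the ratio within each array was read. In 15 pairs the ratio of cytosolic to mitochondrial transcript was higher in the knockout-labelled arrays, with a median change of 0.11 on the log2 scale, and in 12 pairs the cytosolic difference was positive and the mitochondrial one negative. Ratios did not overlap between groups in 7 pairs, all higher: Farsb and Farsa with Fars2, Cars with Cars2, Hars with Hars2, Tars with Tars2, Aars with Aars2, and Rars with Rars2. No share was computed over pairs of other genes, so these counts of pairs have no background beside them. Fars2 stands in 2 of the 7 pairs, which are thus not separate observations. The ratio of Farsb to Fars2, against its control mean, was −0.074, 0.156 and −0.082 in controls and 0.451, 0.417 and 0.473 in the knockout-labelled arrays, a change of 0.45 ± 0.080. Cars to Cars2 changed by 0.32 ± 0.069, Hars to Hars2 by 0.29 ± 0.074, Tars to Tars2 by 0.23 ± 0.071 and Aars to Aars2 by 0.19 ± 0.057. The ratio of Iars to Iars2 changed least, by 0.0041 ± 0.077, with a 95% confidence interval of −0.210 to 0.218. The exact two-sided permutation test gave p = 0.1 for those 7 pairs, the smallest that 3 against 3 arrays allow, and an adjusted p of 0.243 over the 17 pairs, so this test cannot pass 0.05 for any pair. From the pooled SD of the arrays, not adjusted over the pairs, the 95% confidence interval of the change excluded 0 in 6 of the 17 pairs, the same 7 without Rars and Rars2, such as 0.226 to 0.669 for Farsb with Fars2 and 0.127 to 0.507 for Cars with Cars2.

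Level bears on how these counts are read, because differences over all genes changed sign with brightness. All 21 cytosolic members lay in the brightest quartile of genes, where the median difference was −0.026 and 42.3% of differences were positive, against 17 of the 21. At limma's unadjusted p under 0.05, 9.35% of genes in that quartile were higher. Of the 16 mitochondrial members, 10 lay in the third quartile, where the median was −0.033 and 41.7% were positive, and 7 of these 10 were negative. The other 6 lay in the brightest quartile, and 5 of them were negative, with a median of −0.035. The mitochondrial medians of −0.044 and −0.035 in these quartiles were thus near those of all genes of like level, while the cytosolic median of 0.060 lay on the other side of 0 from its quartile.

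**Figure D4:**
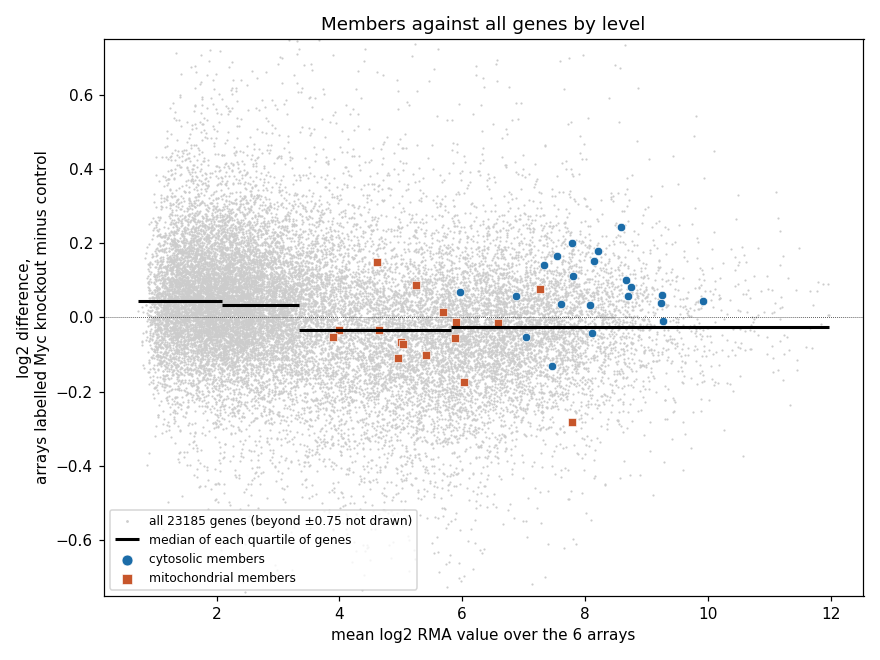
Log2 difference (y axis, knockout-labelled arrays minus control) against the mean log2 RMA value over the 6 arrays (x axis) for all 23185 genes (grey), cytosolic members (blue circles) and mitochondrial members (orange squares); black bars are the medians of the quartiles of genes by level. Bars lie above 0 for the dimmer quartiles and at −0.033 and −0.026 for the brighter ones, and 17 of 21 blue circles lie above 0.

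Scaling and single arrays moved the small counts. Over all genes, limma's 105 calls at an adjusted p under 0.05 fell to 0 with a replicate block and to between 0 and 2 with any array left out. At limma's unadjusted p under 0.05, the cytosolic count was 1 under median centring and 1 with a replicate block. It was 7 when the prior variance followed intensity. It was 2 when control replicate 1, control replicate 2, knockout-labelled replicate 1 or knockout-labelled replicate 3 was left out. Of all 23185 genes, 1196 were higher by that p under median centring, 1486 with a replicate block and 1684 with the intensity trend. With those arrays left out, 1322 to 1572 were higher. The cytosolic count of 1 of 21 was thus not above the share over all genes. The count of cytosolic genes with positive differences stayed at 17 under median centring and cyclic loess, with medians of 0.035 and 0.089. The mitochondrial median was −0.069 under median centring and −0.010 under cyclic loess, where 9 of 16 were negative, and −0.020 without knockout-labelled replicate 1. Without that array, or without control replicate 1, 2 mitochondrial members were lower at limma's unadjusted p under 0.05. In these fits, 1589 and 1454 of all genes were lower by that p.

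Partners of the cytosolic enzymes differed in both directions. Of 20 measured genes for charging partners, tRNA processing and delivery, 0 passed over all genes and the median was 0.0095. At limma's unadjusted p under 0.05, 1 was higher and 1 lower, against 6.97% of all genes higher and 7.91% lower. Eef1e1, the gene of the remaining scaffold of the multisynthetase complex, was the higher one. It was at 8.60, 8.54 and 8.32 in controls and at 8.72, 8.81 and 8.80 in the knockout-labelled arrays, without overlap (0.29 ± 0.087, limma's adjusted p = 0.219). The lower one was Elac1, the gene of a tRNA 3′ end nuclease, at 4.96, 4.85 and 5.06 against 4.50, 4.39 and 4.60 (−0.46 ± 0.085, limma's adjusted p = 0.0921). Clp1, for an RNA kinase of tRNA splicing, differed by 0.18 ± 0.085, and Aarsd1, for an editing protein that removes serine from alanine tRNA, by −0.21 ± 0.092.

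Partners of the mitochondrial enzymes had small differences. Of 24 measured genes, 10 had positive and 14 negative differences, with a median of −0.020. In limma, 0 passed over all genes and 0 had an unadjusted p under 0.05, against 6.97% of all genes higher and 7.91% lower. Hsd17b10, a subunit gene of mitochondrial RNase P, was at 7.63, 7.74 and 7.62 in controls and 7.89, 7.78 and 7.78 in the knockout-labelled arrays (0.15 ± 0.065). Lrpprc, for a stabilizer of mitochondrial mRNA, differed by 0.068 ± 0.066. Gtpbp3, for an enzyme that modifies mitochondrial tRNA, and Tufm, for the mitochondrial elongation factor that delivers charged tRNA, differed by −0.21 ± 0.10 and −0.19 ± 0.12; in both the first knockout-labelled array was lowest, at 4.16 and 4.89.

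Among genes of ATF4 and the amino acid response, which include regulators shared with many cytosolic synthetase genes, members differed in both directions. Of 23 measured, 15 had positive differences and the median was 0.054. In limma, 2 fell and 0 rose at an adjusted p under 0.05, against 0.198% of all genes lower and 0.254% higher. Limma's unadjusted p under 0.05 was met by 3 higher and 4 lower genes, where 6.97% and 7.91% of all genes met it. The genes that fell were Ddit4, an inhibitor of mTORC1 signalling, and Stc2, a secreted glycoprotein gene. Stc2 was at 7.73, 7.73 and 7.71 in controls and at 7.32, 7.30 and 7.29 in the knockout-labelled arrays (−0.42 ± 0.051, limma's adjusted p = 0.0353), and Ddit4 differed by −1.0 ± 0.092. Both calls were lost with a replicate block (limma's adjusted p = 0.181 and 0.114) and with any array left out (0.104 to 0.163 for Stc2 and 0.0724 to 0.157 for Ddit4). The differences themselves, with each array left out, were −0.43 to −0.41 for Stc2 and −1.06 to −0.90 for Ddit4. Over all genes, limma's calls likewise fell to between 0 and 2 with any array left out. Nupr1, for a stress-induced nuclear protein, and Mthfd2, for a mitochondrial folate enzyme, had the smallest p among the higher ones, with 0.21 ± 0.060 and 0.16 ± 0.054, and neither passed.

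Interferon response genes, the setting in which Wars is known to be induced, also split. Of 15 measured, 4 had positive and 11 negative differences, with a median of −0.13. At limma's unadjusted p under 0.05, 2 were higher and 4 lower, against 6.97% of all genes higher and 7.91% lower. Gbp2, an interferon-induced GTPase gene, rose over all genes, from 5.38, 5.42 and 5.07 in controls to 6.42, 6.10 and 6.26 (0.97 ± 0.12, limma's adjusted p = 0.0405). This call was lost with a replicate block (limma's adjusted p = 0.138) and with any array left out (0.119 to 0.171). The difference of Gbp2 was 0.86 to 1.05 with each array left out. Ifit1 differed by 0.63 ± 0.13 without passing. Rsad2, an antiviral enzyme gene, and Tap1, a peptide transporter gene, differed by −0.56 ± 0.10 and −0.25 ± 0.054 without passing. Wars, at 0.20 with overlapping groups, thus stood on the side of Gbp2 and Ifit1 and opposite to the list's median. A link between Wars and the interferon genes was not tested.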

How the data were processed

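Total RNA of 6 samples, 3 per group, was measured on biotin-labelled Affymetrix arrays. Per the submitters' processing notes, RMA was used and limma 3.14.4 is named; the deposited values have the range of log2 RMA values, which are background-corrected, brought to a common distribution and summarised to 1 log2 value per probe set. A change common to all transcripts is lost in this step. For the array version, the probe sets and the build, the sources used here give no name. Of 25206 probe sets, 23185 have 1 gene symbol in the platform annotation, 0 several and 2021 none (unnamed here); no gene had more than 1 probe set.

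Groups came from the sample titles. Differences were fitted to all 23185 genes in R 4.3.3 with limma 3.58.1 (lmFit, eBayes, no covariate, two-sided, Benjamini-Hochberg). Ratios of cytosolic to mitochondrial genes were tested by exact permutation, with errors from the pooled SD. Members and lists were chosen with earlier results of these data known. Values per array are given for members at an unadjusted p under 0.05, the 3 highest and 3 lowest of each compartment, and Tars, Wars, Gars and Kars; of other lists the 2 higher and 2 lower genes with the smallest p were named; Aars, Vars2 and Ears2 were added after their values were seen. The fit was run on 20 simulated sets of 23185 genes, each with 200 changed genes and spreads drawn from limma's own fitted prior. For this comparison, 0.3% of genes changed by 0.25 on the log2 scale were recovered, 30.9% at 0.5 and 84.5% at 1, and 5.08% of calls were false. That false share follows largely from this setting, and recovery also depends on how many genes change, so neither need hold for the arrays. Promoters came from RefSeq (GRCm38.p6); all 1841 overlapping windows of opposite strands were reverse complements; protein sequences were not used here. Alternatives were a replicate block, intensity trend, robust prior, array weights, median centring, cyclic loess, level filters, all probe sets and each array left out. Figures used matplotlib 3.10.9.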

Additional observations from a re-analysis of the deposited data

How the results depend on the processing

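In limma, 0 members passed over all genes under any alternative run. The smallest of limma's adjusted p among members lay between 0.0643 (intensity trend) and 0.325 (without control replicate 3). In simulation at 3 arrays per group, 0.3% of genes changed by 0.25 on the log2 scale were recovered. Simulated spreads were drawn alike for genes of every level. Median SDs of the cytosolic members were 0.045 in controls and 0.059 in knockout-labelled arrays, against 0.093 and 0.101 over all genes. The simulated share therefore need not hold for a gene such as Tars. At limma's unadjusted p under 0.05, the cytosolic count higher was 4 in the fit reported and 7 with an intensity trend. It was 1 under median centring, 1 with a replicate block, and 2 to 4 with each array left out. Of all 23185 genes, 1616, 1684, 1196, 1486 and 1311 to 1572 were higher in these fits, in that order. The mitochondrial count lower, 1, was 2 under median centring and 1 to 2 with each array left out. Of all genes, 1834, 2216 and 1454 to 1688 were lower in these fits. The cytosolic median of 0.060 was 0.089 under cyclic loess, 0.035 under median centring, 0.081 without Gars, Kars, Aimp1 and Aimp2, and 0.056 to 0.087 with each array left out. The mitochondrial median of −0.044 was −0.010 under cyclic loess, −0.069 under median centring and −0.053 to −0.020 with each array left out. The difference of these medians, 0.10, was 0.13 without Gars, Kars, Aimp1 and Aimp2 and 0.084 to 0.13 with each array left out; it was 0.095 among members in the brightest quartile, an alternative chosen after seeing the data. With each array left out, Kars ranged from −0.021 to 0.0061 and Aimp1 from −0.083 to 0.0053, with a changed sign without knockout-labelled replicate 2 and without control replicate 2, respectively. The cause was not tested. Same-numbered arrays of the groups did not deviate together over all genes (correlations of −0.0696, −0.0124 and −0.0175). These values show no pairing by replicate number but cannot exclude a shared culture or transduction. A replicate block left the differences unchanged and altered only the estimate of their spread.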

Other observations

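Some members had exactly the same log2 value in several arrays. Pars2, the mitochondrial proline enzyme gene, was at 3.93 in all 3 controls and in 2 of the knockout-labelled arrays, to every deposited digit. Aars2 shared 1 value over 4 arrays, and Eprs, Lars, Aimp1, Hars2 and Tars2 each shared a value over 3. In all, 9 of 37 members (24.3%) had a value shared by at least 2 arrays, against 38.8% of all genes and 20.5% of genes in the brightest quartile. The SD was 0 in the controls of Pars2, where all 3 values were equal. Other genes with shared values varied in SD. In controls and knockout-labelled arrays it was 0.058 and 0.059 for Lars, 0.014 and 0.027 for Kars, and 0.101 and 0.0046 for Aimp1. Median SDs over the 37 members were 0.046 and 0.060. The 5 cytosolic genes with shared values were Eprs, Kars, Lars, Aimp1 and Aimp2, all counted in the multisynthetase complex.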
